A study of Mus musculus with 8 samples.

Results

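The interferon system was examined in mouse heart RNA through 71 of the 17911 genes in the deposited table. They were all genes whose symbol marks them as a signal transducer and activator of transcription (STAT), an interferon regulatory factor (IRF) or a member of the families IFIT, IFITM, IFI, OAS, GBP, ISG and MX, together with Ifih1, Rsad2 and Usp18. The choice used gene names and no measured value. All 71 were found in the GENCODE vM21 mouse annotation, and 12 further protein-coding names of the same pattern were not analysed here. The study sequenced RNA from 8 whole hearts of wild-type mice of genotype C57Bl6/J, 4 male (replicates 1, 3, 4 and 5) and 4 female (replicates 1 to 4), and compared the sexes. The series is named for the RNA helicase DDX3X and female heart development, but none of these 8 hearts carried an engineered allele or a treatment according to the labels. The mice were young adults, given as 4 weeks old in one place and as 4 to 6 weeks in another. Each library came from a single heart and all 8 shared batch number 1. The labels call the molecule total RNA, while the protocol describes a kit for small RNA.

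Interferons are secreted proteins that cells release on sensing viral nucleic acids or, for interferon gamma, that lymphocytes release. Type I interferons act through a receptor and its kinases to assemble STAT proteins and IRF9 into a complex that binds the interferon-stimulated response element (ISRE), while interferon gamma drives STAT pairs onto the gamma-activated site (GAS). The induced genes make antiviral proteins, and many are also transcribed at a low resting level in healthy tissue, where endothelial cells, fibroblasts, cardiac muscle cells and resident macrophages can all respond.

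The hearts were sequenced to between 51.7 M and 75.7 M recovered gene reads, below the more than 80 M reads that the labels state. Female replicate 4, male replicate 5 and female replicate 3 had the fewest reads, at 51.7 M, 55.0 M and 61.6 M. The values are read counts that were divided by 1 size factor per heart, called normalized read counts below. The tissue label held: the 10 cardiomyocyte marker genes summed to between 4696540 and 5288800 normalized reads per heart, compared with 220 to 512 for 9 T cell markers. Macrophage markers lay at 16601 to 19435 normalized reads summed over 12 genes in the females and 20699 to 24410 in the males. The ranges of the sexes did not overlap. In bulk RNA of this kind, fewer cells of a type and less RNA per cell cannot be told apart.

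Promoter sequence was not used to choose the genes. The matches are shown first because their counts differed between the families, a difference that was not tested. RefSeq promoters on the GRCm38.p6 build, each 250 bases before to 50 bases after a start site, were found for 54 of the 71 genes. They were searched on both strands for the ISRE, written as GAAA, 2 bases of any kind and GAAA again (TTTC, 2 bases and TTTC on the other strand), and for the GAS as TTCNNNGAA, which reads the same on both strands. Overlapping matches were kept, and no letter was allowed to differ from the pattern. An ISRE match was present in 26 of the 54 genes, or 48.1%, compared with 3.99% of the 27025 genes that have a promoter of this length. A GAS match was present in 12 of the 54, or 22.2%, compared with 9.55% of all genes. A match is a run of letters and not a measured binding site.

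The guanylate-binding protein genes are shown because their RNA varied together from heart to heart, as described further on. All 4 with a promoter in the table held an ISRE match, and Gbp5 and Gbp7 also held GAS matches. Capitals mark every match in a whole promoter, but only 1 match in a shorter window. Further ISRE matches that overlap the marked one in Gbp3, Oas1a, Oas1g and Isg15 are not marked. Each sequence is given 5′ to 3′ in the direction of its gene.
Gbp2, ISRE, chr3:142620594-142620623, plus strand: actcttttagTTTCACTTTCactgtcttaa
Gbp3, ISRE, chr3:142559989-142560018, plus strand: caggacacagTTTCAGTTTCtatttcccag
Gbp5, ISRE, chr3:142496759-142496788, plus strand: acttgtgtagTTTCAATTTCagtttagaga
Gbp5, GAS, chr3:142496872-142496900, plus strand: tggccgttatTTCTCAGAAccaagcacag
Gbp7, whole promoter with 2 GAS matches followed by 1 ISRE match, chr3:142530086-142530385, plus strand: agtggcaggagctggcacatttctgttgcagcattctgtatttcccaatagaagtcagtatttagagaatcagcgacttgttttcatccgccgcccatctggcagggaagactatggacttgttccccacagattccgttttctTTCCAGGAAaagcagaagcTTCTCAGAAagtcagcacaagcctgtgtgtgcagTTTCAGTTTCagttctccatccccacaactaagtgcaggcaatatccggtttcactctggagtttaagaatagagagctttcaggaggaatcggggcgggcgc

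The IFIT and OAS genes are shown beside them because they are classical targets of type I interferon. An ISRE match was present in 5 of 6 IFIT genes and in 4 of 6 OAS genes with a promoter, while a GAS match was present in 1 of 6 in each family. The sequences around the matches were identical in the pair Ifit3 and Ifit3b and in the pair Oas1a and Oas1g. The Ifit1 promoter carried 2 ISRE matches, and the gene Ifit1bl2, read from the opposite strand, held the same 2 positions in its own promoter.
Ifit1, whole promoter with 2 ISRE matches, chr19:34640639-34640938, plus strand: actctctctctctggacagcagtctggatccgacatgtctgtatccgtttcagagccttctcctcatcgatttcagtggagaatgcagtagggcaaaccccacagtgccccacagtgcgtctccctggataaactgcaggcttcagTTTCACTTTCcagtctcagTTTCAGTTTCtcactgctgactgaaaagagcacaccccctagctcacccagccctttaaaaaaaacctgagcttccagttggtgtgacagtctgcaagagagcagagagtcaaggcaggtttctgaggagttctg
Ifit3, ISRE, chr19:34583363-34583392, plus strand: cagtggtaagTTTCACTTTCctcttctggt
Ifit3b, ISRE, chr19:34607759-34607788, plus strand: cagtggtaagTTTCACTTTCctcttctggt
Oas1a, ISRE, chr5:120907526-120907555, minus strand: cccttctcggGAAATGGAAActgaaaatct
Oas1g, ISRE, chr5:120887612-120887641, minus strand: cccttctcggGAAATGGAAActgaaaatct
Isg15, ISRE, chr4:156200871-156200900, minus strand: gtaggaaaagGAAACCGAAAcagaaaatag

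The p200 genes, a cluster on chromosome 1 whose proteins bind DNA, held an ISRE match in 5 of the 6 genes with a promoter and a GAS match in none of the 6. The windows around it in Ifi206 and Ifi213 differed only in their first base. Ifi205 is shown because it had the largest sex difference of all 71 genes, and its second ISRE match lay after the start site.
Ifi205, first ISRE match, chr1:174031870-174031899, minus strand: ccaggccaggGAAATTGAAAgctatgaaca
Ifi205, second ISRE match, chr1:174031713-174031742, minus strand: ataccccattTTTCACTTTCtcagttactg
Ifi206, ISRE, chr1:173491339-173491368, minus strand: tgtctctgagGAAATCGAAAgctatgaacc
Ifi213, ISRE, chr1:173599326-173599355, minus strand: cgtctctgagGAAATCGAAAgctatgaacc

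Matches were fewer among the regulators and in some induced families, and differences between families were not tested. Among the 8 IRF genes with a promoter, 1 held an ISRE match and 3 a GAS match, and among the 6 STAT genes 2 held an ISRE match and none a GAS match. The IFITM genes had an ISRE match in 2 of 6 and a GAS match in 2 of 6, and the other Ifi genes had 0 of 4 and 1 of 4. Irf1 and Irf8, which are themselves induced by interferon gamma, are shown with Stat2.
Irf1, GAS, chr11:53769914-53769942, plus strand: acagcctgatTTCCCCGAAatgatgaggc
Irf8, GAS, chr8:120736177-120736205, plus strand: caaaagtgatTTCTCGGAAagagagcgct
Stat2, ISRE, chr10:128270266-128270295, plus strand: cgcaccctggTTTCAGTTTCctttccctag

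Resting levels spanned a wide range. Per kilobase of exon, Ifitm3 was highest at 5325 normalized reads and Ifitm2 was next at 3257, both coding for small membrane proteins that hinder viral entry. Ifi27l2a followed at 1941 and Ifi27 at 1111, and then Stat5b, Stat3 and Stat6 at 1043, 1038 and 978. At the other end stood Stat4, a transducer of interleukin-12 in lymphocytes, at 2.75 normalized reads per kilobase, and Oas3 at 3.28. Of the 71 genes, 24 had a mean of at least 1000 normalized reads and 9 a mean under 50. The counting error (1 SD of the reads of the lowest heart) ranged from 1.12% for Stat3 to 57.7% for Stat4, and it covers counting only.

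Among the STATs, Stat2 is a transducer of type I interferon. Its normalized counts were 1689.6, 1940.3, 1552 and 1732 in female replicates 1 to 4, and 1889.8, 1655, 1804 and 1604 in male replicates 1, 3, 4 and 5. Female replicate 2 and male replicate 1 were the highest of their sex, and the sexes overlapped. Irf9, the main DNA-binding member of the complex that recognizes the ISRE, ran from 1279.8 to 1508 over all hearts. The 95% interval of the sex difference reached no further than 1.12-fold for Stat2 and Irf9. Stat3, the transducer of interleukin-6, was steady between 9462 and 10457, and Stat6, that of interleukin-4, between 4112 and 4443. Stat4 stayed between 3.65 and 17.4 normalized reads.

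Stat5a and Stat5b transmit growth hormone and prolactin signals, and growth hormone reaches the tissues in different patterns in male and female mice. Stat5a had 2242, 2490.1, 2287 and 2557 normalized reads in the females (mean 2394 ± 153, SD, n = 4) and 2078, 2002, 1844 and 2239.7 in the males (2041 ± 164). Every female heart was above every male heart, although female replicate 1 and male replicate 5 were almost equal. The log2 difference, female minus male, was 0.23 (SE 0.06) with a limma adjusted p = 0.0998. Without male replicate 5 it was 0.28 with a limma adjusted p = 0.022. Stat5b, at 5928 ± 70.0 in females and 5631 ± 180.1 in males, differed by 0.07 (SE 0.03, limma adjusted p = 0.268), and its highest male, replicate 5 at 5880.3, overlapped the females. The 3′ ends of Stat5a and Stat3 overlap on opposite strands, and no source used here says whether reads were counted by strand, while 8.5% of the 50-base words in Stat5a transcripts also occur in other genes.

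The IRF family holds activators and repressors of interferon genes. Irf3, which is present before infection and is activated by phosphorylation, was the steadiest at 1902 to 2054 normalized reads. Irf2, a repressor of interferon-induced genes, ran from 1243 to 1414. Irf1, an activator induced by interferon gamma, ran from 1402 to 1914. Irf7, which amplifies type I interferon production, had 794, 804, 628 and 733 in the females and 666, 776, 900.1 and 705 in the males. Male replicate 4 was highest and female replicate 3 lowest for Irf7, the sexes overlapped, and the 95% interval of their difference reached 1.20-fold. Irf8, a factor of the monocyte and dendritic lineages, ran from 406 to 644 and was likewise highest in male replicate 4 and lowest in female replicate 3. Irf4, a factor of lymphocytes, lay between 62.8 and 130.4.

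Irf5, which acts downstream of Toll-like receptors in macrophages and dendritic cells, was the only one of the 9 IRF genes whose sexes did not overlap. Its normalized counts were 315, 310.3, 261 and 286 in the females (293 ± 25.0, SD, n = 4) and 386, 358, 419 and 334 in the males (374 ± 36.4). All 4 males were above all 4 females. The log2 difference was -0.35 (SE 0.09, limma adjusted p = 0.0881), and without male replicate 5 it was -0.40 with a limma adjusted p = 0.0361. Macrophage markers were separated in the same direction, and their part in the Irf5 values was not tested. An overlap with Tnpo3 on the opposite strand makes up 11.0% of the 50-base words of Irf5.

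The 3 IRF2-binding proteins, nuclear partners of IRF2 that act mainly in repression, showed no shared direction across hearts. Irf2bpl averaged 3192 ± 163 in females and 3189.8 ± 225 in males. Irf2bp2 was lowest in female replicate 1 at 1829 and highest in female replicate 4 at 2978. Irf2bp1 ran from 1700.3 to 1977.

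IFIT proteins bind foreign RNA and block its translation. Ifit2 was the most abundant by read count, at 1012 ± 54.2 normalized reads in females and 1078 ± 111 in males. Ifit3 had 606 ± 77.6 and 574 ± 72.0, and Ifit1 347 ± 35.3 and 330.4 ± 34.2. All 6 genes overlapped between the sexes, with log2 differences from -0.09 to 0.15. Of the 50-base words of Ifit3, 51.2% also occur in Ifit3b, so the reads of this pair are uncertain in their assignment.

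Of the 6 IFITM genes, Ifitm3 averaged 3567 ± 114 in females and 3653 ± 355 in males, Ifitm2 2064 ± 137 and 2202 ± 113, and Ifitm1 157 ± 19.3 and 128 ± 20.5. None passed the test, and for Ifitm2 48.5% of the 50-base words are shared with other genes. Among the OAS genes, whose products make a second messenger that activates RNase L, Oasl2 was the most abundant by read count at 1013 ± 117 and 969.6 ± 108. Oas2 had 710.0, 696, 599 and 678 in the females and 708, 978, 973 and 697 in the males. Male replicates 3 and 4 stood above all other hearts, the other males lay within the female range, and the log2 difference was -0.31 (SE 0.12, limma adjusted p = 0.269). Oas1a averaged 179 ± 32.6 and 186 ± 42.2, with 57.6% of its 50-base words shared with Oas1g. Oas1c, by contrast, was separated by sex at a low level, at 52.4, 53.3, 45.8 and 56.0 in females and 44.8, 41.3, 45.2 and 44.6 in males. Its limma adjusted p was 0.485.

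The remaining antiviral genes were close between the sexes. Rsad2 codes for viperin, an enzyme that makes a chain-terminating nucleotide, and averaged 1519 ± 207 in females and 1357 ± 223 in males. Ifih1, the RNA sensor MDA5, had 839 ± 72.5 and 842 ± 52.3, and Isg20l2, a nucleolar exonuclease, 748 ± 29.0 and 758 ± 55.3. Isg20, an RNA exonuclease, had 161, 194, 154 and 174 in females and 177, 198, 241 and 227 in males. Its highest female overlapped the lowest male, and the log2 difference was -0.30 (SE 0.12, limma adjusted p = 0.249). Among the other Ifi genes, Ifi27 averaged 1539 ± 210.1 and 1721 ± 50.5, Ifi35 943 ± 36.5 and 992 ± 65.6, and Ifi27l2a 972 ± 254 and 825 ± 140.0. Ifi44 had one of the widest ranges of the 71 genes, from 186 in male replicate 5 to 389 in male replicate 4.

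In the p200 cluster, Ifi203 was the most abundant by read count at 2017 ± 208 in females and 2213 ± 157 in males, ahead of Ifi207 at 544 ± 43.7 and 611 ± 65.5. The annotated pseudogene Ifi203-ps had 528 ± 36.9 and 509 ± 29.5. Ifi209 ran from 50.7 in male replicate 5 to 152 in male replicate 4. Ifi204, which codes for a DNA-sensing relative of human IFI16, had 314, 301, 225 and 234 in the females and 367, 348, 382 and 287 in the males. The male with the lowest value lay within the female range, and the log2 difference was -0.37 (SE 0.13, limma adjusted p = 0.176).

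Ifi205 differed most between the sexes. It had 184, 111, 147 and 180.3 normalized reads in the females (156 ± 34.3, SD, n = 4) and 297, 311, 271 and 566 in the males (361 ± 138). All males were above all females, and male replicate 5 stood far above the other 3 males. The ratio of the means, male over female, was 2.32, and the log2 difference was -1.17 (SE 0.26, limma adjusted p = 0.0818). Without male replicate 5 the log2 difference was smaller, at -0.93, with a limma adjusted p = 0.0127. With total reads as a covariate it was -1.48 with a limma adjusted p = 0.00217. Of the 50-base words in Ifi205 transcripts, 18.6% occur in other genes, most of them in Ifi211, which is not analysed here. The per-heart plot of 5 genes shows this spread.

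**Figure D1:**
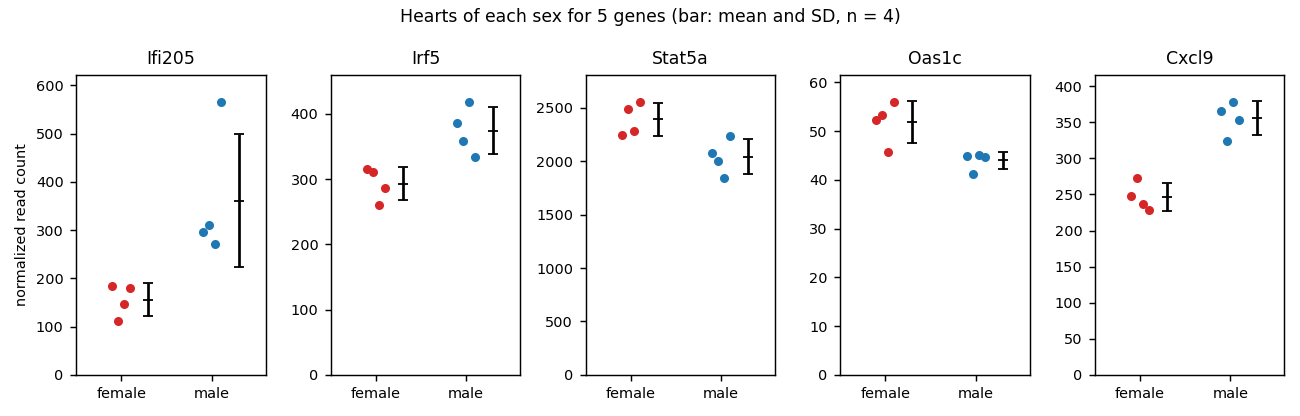
Normalized read counts (vertical axis, linear from 0) of the 4 female and 4 male hearts for Ifi205, Irf5, Stat5a and Oas1c, the 4 interferon genes whose sexes did not overlap, and for the chemokine Cxcl9, with 1 point per heart and bars for the mean and SD of n = 4. Male replicate 5 stands apart for Ifi205 at 566, and Cxcl9 lies at 228 to 272 in females and 324 to 378 in males.

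Taking all 71 genes, none passed the limma test for a sex difference at an adjusted p under 0.05, neither higher nor lower in females, while 1.16% of all 17911 genes passed (0.475% higher and 0.687% lower). At an unadjusted limma p under 0.05 there were 7, or 9.86%, compared with 16.0% of all genes. Stat5a and Stat5b lay above 0 (7.84% of all genes did so at that p), and Ifi205, Irf5, Ifi204, Isg20 and Oas2 below it (8.16%). edgeR's quasi-likelihood test on the recovered reads also called 0 of the 71, with either set of scaling factors. DESeq2 called 3, namely Stat5a higher and Irf5 and Ifi205 lower. The same 3 passed in the authors' deposited table, in which 63 of the 71 had an adjusted p. Of all genes with one, 4.9% were called (2.16% higher and 2.73% lower). Fold changes in that table match those of DESeq2 here (Ifi205 -1.21 in both), and both called 305 genes higher and 385 lower. Its calls are therefore not independent of those of DESeq2. By the rule stated in the labels, a log2 fold change over 0.6 in size with p under 0.05, only Ifi205 passed in the authors' deposited table, compared with 1.35% of all genes. The shares among the 71 genes, 4.76% of those with an adjusted p and 1.41% by the labels' rule, lay near those of the whole table.

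The sexes did not overlap for 4 of the 71 genes, or 5.63%, compared with 9.35% of all genes. Stat5a and Oas1c were the ones higher in females (4.52% of all genes) and Irf5 and Ifi205 the ones lower (4.82% of all genes). The median log2 difference was -0.01, compared with 0.00 over all genes, with 32 genes above 0 and 39 below. Its sign was not stable: it was 0.06 with total reads as a covariate, and ran from -0.07 without male replicate 5 to 0.03 without female replicate 3. The 95% interval of the sex difference stayed within 1.5-fold for 51 genes and within 2-fold for 68.

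**Figure D2:**
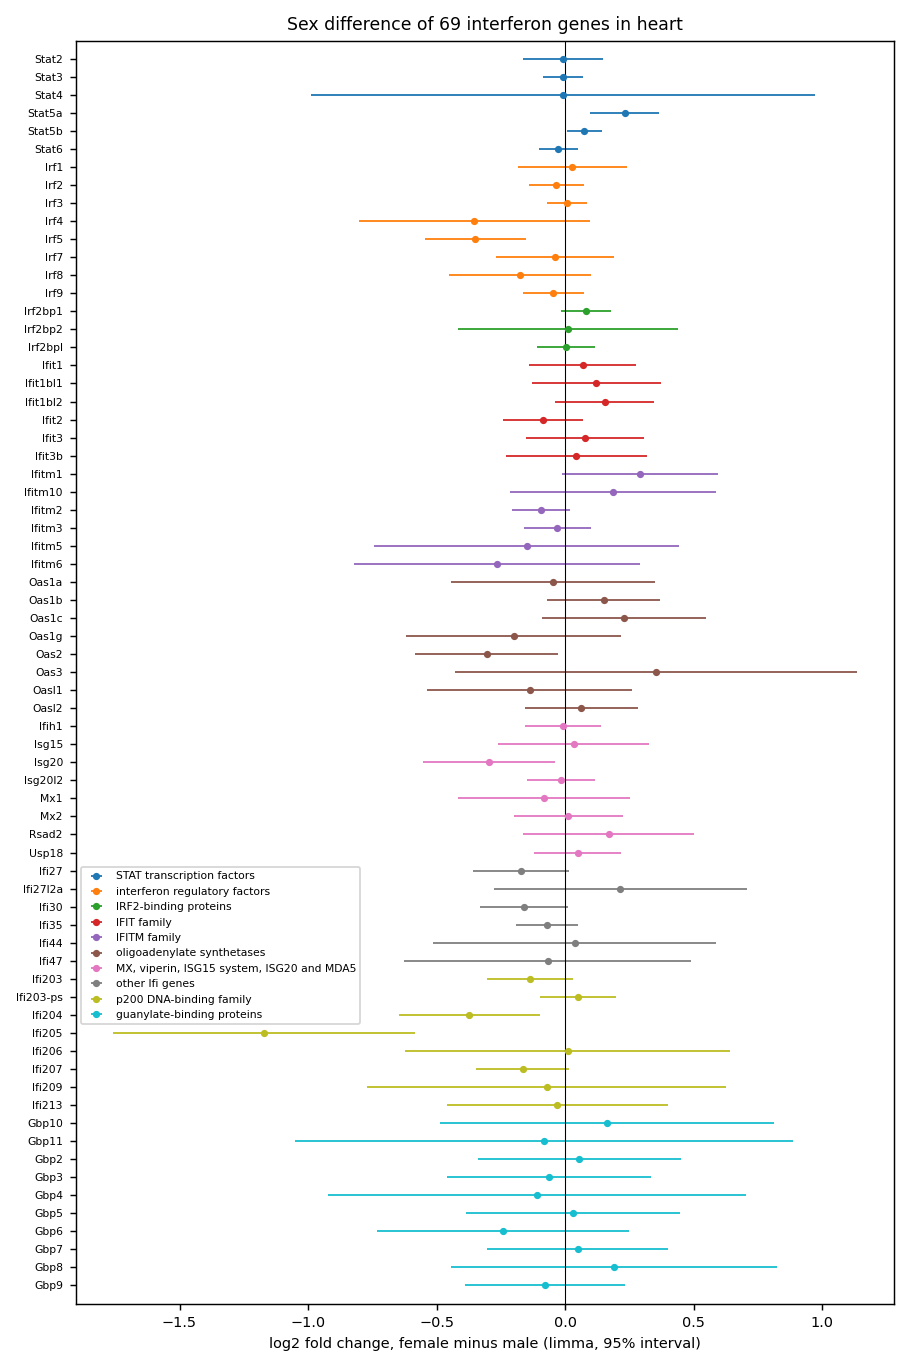
Log2 difference, female minus male, of 69 of the 71 genes (points) with its 95% interval (lines) from the limma fit on log2(normalized count + 1), grouped by role. Ifi205 lies farthest from 0 at -1.17, and the groups scatter on both sides of 0 with a median of -0.01.

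The wider interferon pathway was described with 104 further genes, of which 82 were measured. None of the 21 interferon genes themselves was among them, and they are not analysed here. Of the 82, limma called none higher and 1 lower in females, compared with 0.687% of all genes called lower. That gene was Cxcl9, a chemokine that interferon gamma induces and that attracts T cells. It had 248, 272, 237 and 228 normalized reads in females (246 ± 19.2, SD, n = 4) and 366, 324, 378 and 354 in males (355 ± 23.5). The log2 difference was -0.53 (SE 0.08, limma adjusted p = 0.0109), with no overlap between the sexes. With only the 5 deepest hearts, a choice made after seeing the data, it was -0.45 with a limma adjusted p = 0.0869.

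Most pathway genes leaned the same way, many by small amounts. Of the 82, 65 had a log2 difference below 0, compared with 8792 of all 17911 genes. The median was -0.06, compared with 0.00 over all genes. The differences ran from -0.54 to 0.28. At an unadjusted limma p under 0.05 there were 9 of the 82, all lower in females. Of all genes, 8.16% were lower at that p and 16.0% passed in either direction. The 9 receptors and kinases had log2 differences from -0.12 to 0.28, 8 of them below 0. Ifngr2, a chain of the interferon gamma receptor, averaged 10294 ± 550.1 in females and 11221 ± 657 in males, and Jak1, a kinase of both receptor types, 10491 ± 568 and 10836 ± 109. Of the sensors and adaptors, the adaptor Mavs had 4224 ± 74.2 and 4423 ± 112, and Samhd1, which depletes nucleotides, 3035 ± 229 and 3095 ± 263. The phosphatase Ptpn11 led the negative regulators at 18676 ± 509.8 and 18942 ± 934, followed by Pias1 at 1981 ± 91.5 and 1965 ± 143. Of the other interferon-induced genes Slfn5 had 7650.3 ± 567 and 7965 ± 378, and Znfx1 3446 ± 80.9 and 3503 ± 118. B2m, the light chain of MHC class I, had 10348 ± 2461 and 11543 ± 1621, and the proteasome activator Psme1 6326 ± 350.3 and 6629.5 ± 75.7. None of these 10 genes passed. In the authors' deposited table Ciita, Ptpn6 and Tlr7 passed beside Cxcl9, at log2 fold changes of -0.58, -0.51 and -0.36. Their authors' adjusted p was 0.0268, 0.0177 and 0.0278, and 2.73% of all genes with one were called lower there. DESeq2 called 0 pathway genes higher. All 12 macrophage markers also lay below 0. Limma called 3 of them lower in females (C1qa, C1qb and Csf1r), compared with 0.687% of all genes. The summed endothelial markers separated the sexes too, at 113451 to 120917 in females and 122847 to 130567 in males. By mean log2 deviation, however, the sexes overlapped, at 0.01 in female replicate 2 and -0.01 in male replicate 5. Limma called 0 of the 10 endothelial markers. The part of either cell type in these small differences was not tested.

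Single hearts differed for much of the system. The median ratio of the highest to the lowest heart was 1.45 over the 71 genes, compared with 1.28 over all genes. The order of the hearts was noticed after the values were seen, and the counts that follow describe it without a test. The guanylate-binding proteins, large GTPases that interferon gamma induces and that attack the membranes around intracellular pathogens, varied together from heart to heart. Summed over the 10 genes they gave 8816, 11712, 8049 and 7286 normalized reads in female replicates 1 to 4, and 10999, 8805, 9858 and 7088 in male replicates 1, 3, 4 and 5. Female replicate 2 and male replicate 1 were high, female replicate 4 and male replicate 5 low, and the sexes overlapped.

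Single genes followed that order. Gbp4 had 1492, 2458, 1387 and 979 in the females and 2311, 1393, 1763 and 1189 in the males, a 2.51-fold range. Gbp9 had 1969.9, 2423, 1889.9 and 1772, and 2411, 2193, 2211 and 1695. Gbp7 had 1517, 1962, 1379 and 1333, and 1701, 1423, 1614 and 1224. Female replicate 2 was the highest female in 9 of the 10 genes and male replicate 1 the highest male in 7, and both held at once in 7 of 10, compared with 6.6% of all genes. Female replicate 4 was the lowest female in 8 of 10 and male replicate 5 the lowest male in 8, compared with 26.2% and 28.4% of all genes.

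The genes lie in separate clusters on chromosomes 3 (Gbp2, Gbp3, Gbp5 and Gbp7) and 5 (Gbp4, Gbp6, Gbp8, Gbp9, Gbp10 and Gbp11). Female replicate 2 was the highest female for all 4 genes of the first and for 5 of the 6 of the second. Gbp6 and Gbp10 share much sequence (84.1% of the 50-base words of Gbp10 and 70.7% of those of Gbp6 occur in other genes), while for Gbp2, Gbp3 and Gbp5 the share was 2.03%, 3.75% and 1.44%.

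Other genes of the interferon gamma response stood in a similar order, more so among the females than among the males. In the list of 21 GTPases and antigen presentation genes, female replicate 2 was the highest female in 16, male replicate 1 the highest male in 11, and both at once in 10. The shares of all genes were 23.1%, 23.4% and 6.6%. Male replicate 4 was the highest male in 8 of the 21, but in only 1 of the 10 guanylate-binding proteins. Its mean log2 deviation over the 21 was 0.22, near the 0.25 of male replicate 1. Irgm2, an immunity-related GTPase, had 1719.7, 2334, 1594 and 1382 in females and 2184, 1654, 2039 and 1489 in males. Igtp, another of that family, had 1004, 1427, 908 and 787, and 1279, 869, 1279 and 987. Stat2 had its highest female and male in the same hearts as well.

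**Figure D3:**
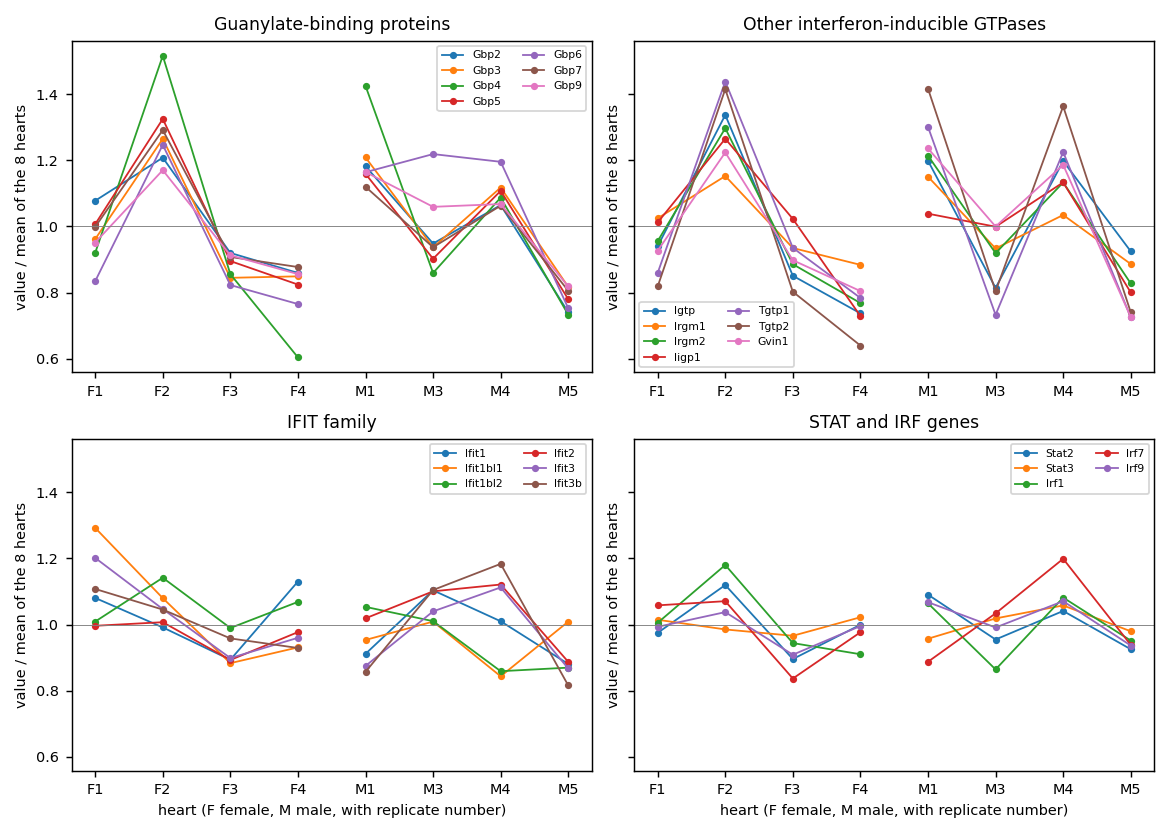
Normalized count of each gene divided by its mean over the 8 hearts (vertical axis) by heart (horizontal axis, F female and M male with replicate number) in 4 panels, the guanylate-binding proteins with a mean of at least 50, other interferon-inducible GTPases, the IFIT family, and 5 STAT and IRF genes; lines join the hearts of a gene and imply no order. Both sets of GTPases are highest among the females in F2 and, except Gbp6 and Iigp1, level or highest among the males in M1, while the IFIT genes show no such common peak.

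The IFIT, OAS and p200 genes were in part ordered differently. Female replicate 3 was the lowest female in 5 of 6 IFIT genes, 7 of 8 OAS genes and 5 of 8 p200 genes, compared with 27.8% of all genes. Male replicate 4 was the highest male in 6 of 8 OAS genes and in 7 of 9 IRF genes, compared with 24.8% of all genes. Female replicate 2 and male replicate 1 were both the highest of their sex in 0 of 8 OAS, 0 of 8 p200 and 0 of 9 IRF genes, and in 1 of 6 IFIT genes. With 6.6% of all genes in this pattern, such counts in small groups are near that share. By mean deviation, male replicate 5 was the lowest heart for the IFIT (-0.17) and OAS genes (-0.25), as for the guanylate-binding proteins (-0.38). Across all 71 genes, female replicate 3 or male replicate 5 was the lowest heart in 47, or 66.2%, compared with 28.7% of all genes. Both hearts are among the 3 with the fewest reads, and the part of read depth was not tested. The 12 macrophage markers were lowest in female replicate 3, at -0.29 relative to their overall log2 mean, and highest in male replicate 4, at 0.27. The 6 plasmacytoid dendritic cell markers were likewise lowest and highest in these hearts by mean deviation, at -0.29 and 0.42. Summed, however, they were highest in female replicate 2 at 8668 normalized reads, with 8421 in male replicate 4. Among them, Bst2 also belongs to the other interferon-induced genes of the wider pathway. The part of either cell type was not tested. The heat map by role shows the blocks.

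**Figure D4:**
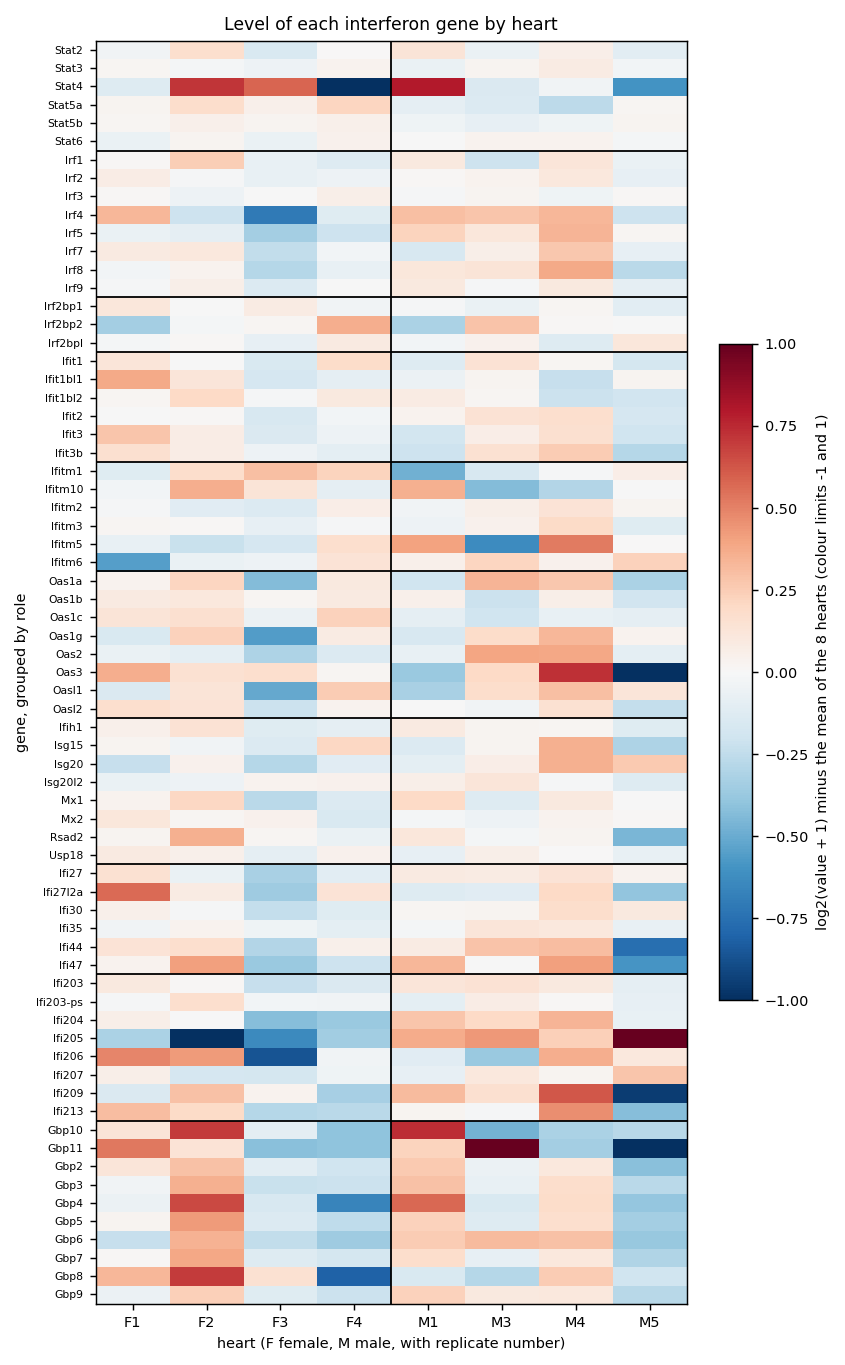
Log2(normalized count + 1) of 69 of the 71 genes in each heart minus the gene's mean over the 8 hearts (colour, limits -1 and 1), with genes in rows by role and hearts in columns by sex and replicate number. The guanylate-binding proteins at the bottom are mostly red in F2 and M1 and blue in F4 and M5, while many other rows are blue in F3.

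Markers of lymphocytes also varied between hearts. The 9 T cell markers averaged 0.90 above their overall log2 mean in female replicate 2, 0.78 above it in male replicate 4 and 0.45 above it in female replicate 1, and -0.06 relative to it in male replicate 1. Summed, they ran from 230 to 512 normalized reads in females and from 220 to 508 in males. The 5 natural killer cell markers were highest in male replicate 1 at 0.55, with female replicate 2 at 0.41 and male replicate 4 at 0.40, and summed to no more than 99.8 normalized reads in any heart. Both cell types are known sources of interferon gamma. The 7 B cell markers stood at 0.84 in male replicate 1, 0.42 in female replicate 1 and 0.34 in female replicate 2. Male replicate 5, which had the most Ifi205, was 1.85 above the mean for the 4 neutrophil markers, of which Ngp was at 0 in female replicate 4. The part of these cells in the order of the hearts was not tested.

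**Figure D5:**
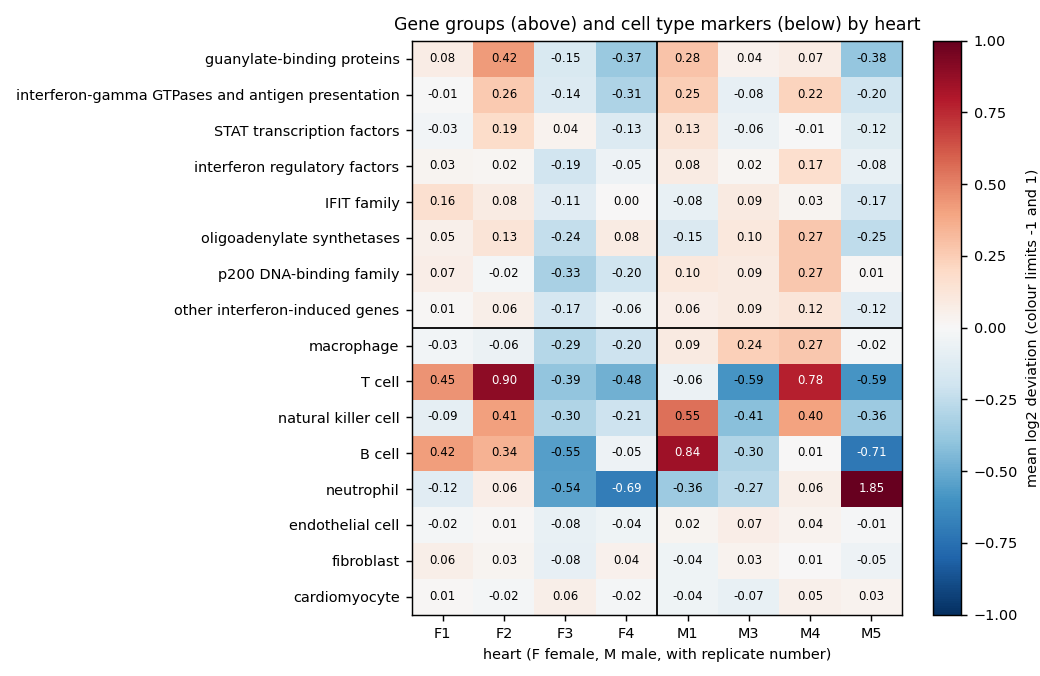
Mean deviation from the overall mean on the log2 scale (colour and printed value) of each gene group or marker list (rows) in each heart (columns). The guanylate-binding proteins stand at 0.42 in F2 and 0.28 in M1 and at -0.37 in F4 and -0.38 in M5, while the cardiomyocyte, endothelial and fibroblast markers stay close to 0.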

How the data were processed

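RNA of 8 mouse hearts was compared between the sexes. The authors deposited a table of signal values, which per the values are read counts divided by 1 size factor per heart, with their own log2 fold changes and the authors' p-values and adjusted p-values, which were used only where named. Per the submitters' processing notes the build was mm10. Which aligner, counter, strand setting and test were used is not given in the sources used here. The authors' fold changes for Ifi205, Irf5 and Stat5a match those of the DESeq2 fit described below. All values (100%, tolerance 0.001 reads) were whole multiples of 1 read, so reads were recovered; the gene with the fewest had 81 over all hearts. No columns of other samples were present, and 22 rows carried no gene name.

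The main test was limma 3.58.1 (R 4.3.3; trend, robust) on log2(value + 1), female minus male, fitted on all 17911 genes with Benjamini-Hochberg adjustment and called under 0.05. A filter of a value of at least 1 in 4 hearts removed 0 genes. The pseudocount understates changes of low genes. Alternatives were edgeR 4.0.16, DESeq2 1.42.0, other pseudocounts and filters, a replicate block, total reads as a covariate, leaving out each heart and, added after seeing the data, the 5 hearts with the most reads. edgeR with TMM factors called 91 genes higher and 125 lower. The limma script was tested on simulated data. Levels per kilobase used the exonic length in GENCODE vM21. Hearts of one sex differed by 8.34 to 18.8 times the sampling noise (chi-square per degree of freedom), so none was a repeat deposit.

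Earlier results of these data were known when members and lists were chosen, although the rule for members used gene names only. Genes named with values were the STAT and IRF genes (values of 2 of them are not reported here, although group counts include them), the 3 most abundant of each other role, the 5 with the smallest p, the 5 with the widest range among those with a mean of at least 50, called pathway genes and the 2 most abundant of each pathway list. Other genes, such as Oas1c, Isg20, Oas2, Stat5b, Gbp6, Gbp10, Irgm2 and Igtp, and the promoters shown were chosen after their values were seen.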

Additional observations from a re-analysis of the deposited data

Results flagged for a closer look

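Values of 1 heart far from the other 3 of its sex were found in 7 of 142 groups of 4 hearts, or 4.93%, compared with 5.49% over all genes, and chance gives about 1 in 20. The measure is the gap to the nearest heart divided by the range of the group.

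Gbp6 stood out in both sexes. Female replicate 2 was highest at 812 normalized reads while the other females lay at 498 to 543 (gap over range 0.856), and male replicate 5 was lowest at 489.9 while the other males lay at 758 to 793 (0.883). Gbp10 was highest in male replicate 1 at 78.7, with the other males at 33.6 to 38.6 (0.888). Irf4 was lowest in male replicate 5 at 89.3, with the others at 126 to 130.4 (0.884). Ifi205 was highest in the same heart at 566, with the others at 271 to 311 (0.866). The pseudogene Ifi203-ps was highest in female replicate 2 at 583, with the others at 505 to 513 (0.902). Oas1c was lowest in male replicate 3 at 41.3, with the others at 44.6 to 45.2 (0.864).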

How the results depend on the processing

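The number of the 71 genes called was 0 in either direction under edgeR with both sets of scaling factors, pseudocounts of 0.1 and 10, a mean of at least 50, and the 5 deepest hearts. DESeq2 called 1 higher and 2 lower. Total reads as a covariate called 1 lower (Ifi205). Leaving out 1 heart gave 0 to 1 higher and 0 to 2 lower, and all 3 calls came without male replicate 5. Calls under at least 1 of the 17 alternatives were made for 5 genes (Stat5a, Irf5, Ifi205, Gbp6 and Gbp9). Over these alternatives the limma, edgeR or DESeq2 adjusted p ranged from 0.00217 to 0.181 for Ifi205, from 0.0201 to 0.231 for Irf5 and from 0.0209 to 0.246 for Stat5a. Ifi204, Isg20, Oas2 and Stat5b kept their direction and stayed above 0.05 in all 17. With total reads as a covariate, however, the log2 difference shrank to -0.22 for Ifi204, -0.19 for Oas2 and 0.05 for Stat5b, and with the 5 deepest hearts it was -0.25 for Ifi204.

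Over all genes, 85 higher and 123 lower became 305 and 385 with DESeq2, and 53 were higher with total reads as a covariate. Without 1 heart they ran from 30 to 239 higher and from 47 to 277 lower, with the highest of both without male replicate 5. The 1 pathway gene called lower became 4 with DESeq2 and 1 to 4 without 1 heart. Cxcl9 was called in 16 of 17 alternatives, and with the 5 deepest hearts its adjusted p was 0.0869 with limma.

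With a replicate block by label number, 3 of the 71 genes were called lower (Gbp6, Gbp9 and Ifi205, the last with a log2 difference of -0.78 and a limma adjusted p = 0.0425) and 3 pathway genes, and the median log2 difference of the 71 was -0.10. The numbers are shared by 3 pairs of hearts whose deviations correlated at 0.22, -0.06 and -0.09, and not every heart correlated best with its own number, so they do not pair the hearts. Number 2 belongs only to a female heart and number 5 only to a male heart. With this block, female replicate 2 and male replicate 5 therefore add nothing to the sex difference, which rests on the 3 pairs. Other causes of these changes were not tested. With 4 hearts per sex, the 95% interval reached past 2-fold for 3 of the 71 genes.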
